A study of Mus musculus with 28 samples.

Results

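The interstitial matrix genes described here are 42 genes that encode collagens outside the basement membrane, elastic fiber proteins and their crosslinking enzymes, proteoglycans, and adhesive or matricellular proteins. They were listed by gene name, with earlier results of these data known, and all 42 were found among the 53647 gene IDs of the count table. Their RNA was measured in 28 libraries of vascular cells sorted from mouse brain. All animals were PDGFRb-CreERT2; Rosa-tdTomato mice treated with tamoxifen, in which cells that express PDGFRb at that time carry the red reporter tdTomato. Brain metastases (BrM) were grown after injection into the heart of PyMT-BrM3 cells, of breast cancer origin, or Sv2T3-BrM1 cells, of lung cancer origin, and non-tumor brain served as the control.

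Cells free of CD45, CD11B and EPCAM were sorted as CD31-positive, which collects endothelial cells, or as tdTomato-positive, which collects mural cells and is called the PDGFRb sort. Libraries of the CD31 sort number 5 for each state. Those of the PDGFRb sort number 4 for each BrM type and 5 for the controls. They came from 15 mice or pools, 13 of which gave both sorts, and 2 lung labels name 2 mouse numbers each. Strain, sex, age and time after injection are not given in the sources used here. Values are given as CPM, counts scaled to a common library total after TMM scaling, unless another scale is named, and a mean is followed by its SD over the libraries of a group.

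Where values of every library are listed, the order is by mouse number. Non-tumor values are those of mice 53680, 54132, 54135, 56727 and 56740 in either sort. Breast values are those of mice 51950, 52599, 52865 and 53072, followed in the CD31 sort by 53142. Lung values are those of mouse 51435, then in the CD31 sort mouse 51697, and then mouse 54957 and the labels 55169-70 and 56195-56520.

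Between 7.11 M and 23.9 M counts were read per library, so that 3 counts stood at 0.119 to 0.498 CPM. The smallest total belonged to the PDGFRb breast library of mouse 51950, which also had the fewest genes detected, 9174, and had counts for 36 of the 42 members. In the CD31 sort all 10 endothelial markers exceeded a mean of 1 CPM in each group. Summed over 12 epithelial markers, CD31 libraries stood at 3.56 to 10.8 CPM in non-tumor brain, 147 to 3050 CPM in breast BrM and 108 to 2270 CPM in lung BrM. The same sum in the PDGFRb sort was 5.24 to 71.3 CPM in non-tumor brain, 1080 to 4120 CPM in breast BrM and 6210 to 10100 CPM in lung BrM.

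The PDGFRb lung libraries stood apart. Summed over 11 pericyte markers, PDGFRb libraries held 14100 to 25000 CPM in non-tumor brain and 5480 to 15400 CPM in breast BrM. In lung BrM the library of mouse 51435 held 7760 CPM and the other 3 held 199 to 350 CPM. Pdgfrb itself, the receptor whose promoter drove the reporter, was at 856 to 1470 CPM in non-tumor libraries, 466 CPM in the lung library of mouse 51435 and 36 to 42.2 CPM in the other 3 lung libraries. These 3 libraries therefore went against their mural label, and each PDGFRb lung result below is also given by mouse 51435 where it depends on it. The plot of marker sums shows these libraries beside the others. In bulk libraries, fewer cells of a type and less RNA per cell cannot be told apart.

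**Figure D1:**
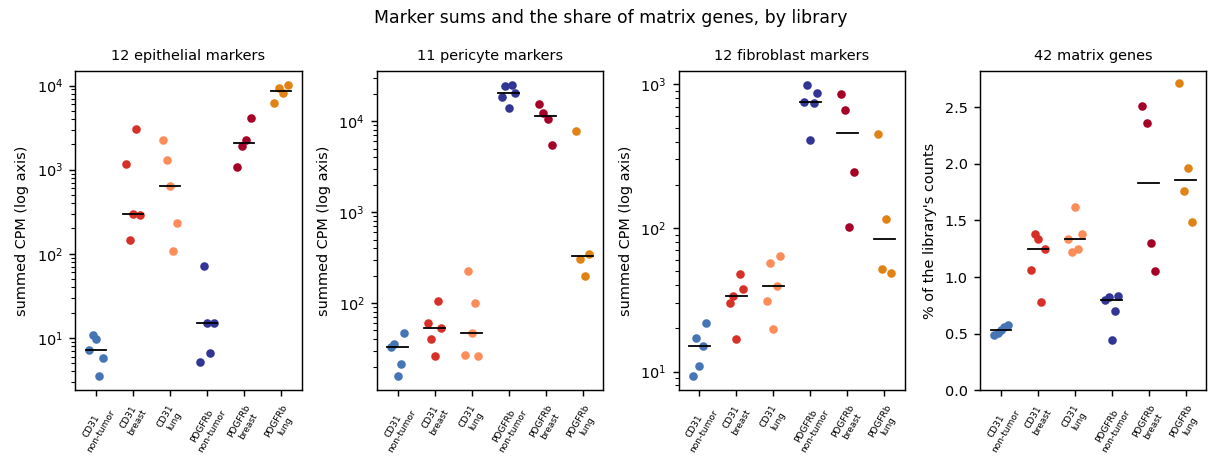
Summed CPM of 12 epithelial, 11 pericyte and 12 fibroblast markers (log axes) and the share of all counts held by the 42 members (percent), with 1 point per library in the 6 groups and a line at each median. In the PDGFRb lung group 3 libraries sit at 199 to 350 CPM of pericyte markers and the library of mouse 51435 at 7760 CPM.

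Interstitial matrix is the fibrous and hydrated material between cells. Fibrillar collagens form its tensile fibers, elastin and the fibrillins form elastic fibers with the help of fibulins and lysyl oxidases, small leucine-rich proteoglycans bind and space collagen fibrils, and matricellular proteins tune how cells attach. Healthy brain holds little of this material outside the meninges and the walls of larger vessels, where perivascular fibroblasts and smooth muscle cells are known sources.

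Promoter windows of 250 bases before to 50 bases after the annotated start were available from RefSeq for build GRCm38.p6 and matched 28 of the 42 members. The 4 shown belong to Emilin1, Fbln2 and Spp1 and to Col1a2, a fibrillar collagen for comparison. For Emilin1, Fbln2 and Spp1 the CD31 libraries of each BrM type did not overlap those of non-tumor brain. The same held for Tnc, which has a window and is not shown, so the choice is no ranking. Capitals mark matches on either strand to the GC box GGGCGG, the CCAAT box CCAAT, the TATA box TATAAA, the AP-1 site TGANTCA and the TEAD site GGAATG.
Emilin1 (chr5:30913536-30913835, plus strand): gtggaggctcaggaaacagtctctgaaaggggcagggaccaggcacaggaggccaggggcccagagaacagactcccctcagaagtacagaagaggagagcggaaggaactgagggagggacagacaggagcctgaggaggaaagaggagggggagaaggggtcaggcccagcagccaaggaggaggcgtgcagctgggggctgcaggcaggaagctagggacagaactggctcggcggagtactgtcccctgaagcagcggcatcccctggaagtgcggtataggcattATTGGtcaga
Fbln2 (chr6:91212514-91212813, plus strand): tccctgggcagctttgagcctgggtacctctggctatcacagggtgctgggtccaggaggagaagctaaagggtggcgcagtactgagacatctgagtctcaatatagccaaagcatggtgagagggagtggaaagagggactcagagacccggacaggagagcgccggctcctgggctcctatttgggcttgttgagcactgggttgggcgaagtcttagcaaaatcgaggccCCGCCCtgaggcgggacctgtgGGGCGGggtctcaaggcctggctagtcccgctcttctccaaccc
Spp1 (chr5:104434861-104435160, plus strand): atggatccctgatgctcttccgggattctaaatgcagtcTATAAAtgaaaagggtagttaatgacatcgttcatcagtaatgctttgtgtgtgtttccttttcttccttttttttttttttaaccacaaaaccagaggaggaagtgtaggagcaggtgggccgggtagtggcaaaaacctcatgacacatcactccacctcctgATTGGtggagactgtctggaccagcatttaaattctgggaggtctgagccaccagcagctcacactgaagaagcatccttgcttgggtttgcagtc
Col1a2 (chr6:4505368-4505667, plus strand): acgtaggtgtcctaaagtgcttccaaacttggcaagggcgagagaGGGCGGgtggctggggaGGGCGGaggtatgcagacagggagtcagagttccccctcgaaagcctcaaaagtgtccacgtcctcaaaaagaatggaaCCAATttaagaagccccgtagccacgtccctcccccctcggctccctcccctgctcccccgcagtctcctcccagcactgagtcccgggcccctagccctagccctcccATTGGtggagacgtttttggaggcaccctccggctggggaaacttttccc
The Emilin1 window held 1 CCAAT box, the Fbln2 window 2 GC boxes, the Spp1 window 1 CCAAT box and 1 TATA box, and the Col1a2 window 2 GC boxes and 2 CCAAT boxes.

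Over the 28 members with a window, 16 held a GC box, against 35.9% of all 27025 promoter windows. The CCAAT box was found in 11 members and 37.9% of all windows, and the TATA box in 5 members (Col3a1, Ogn, Tnc, Spp1 and Thbs2) and 14.2% of all windows. The AP-1 letters were found in Col6a1 and Efemp1 and in 7.93% of all windows, and the TEAD letters in Col3a1, Col6a2 and Ogn and in 14.6%. These matches describe the letters of the windows and carry no statement on binding.

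On the length-scaled FPKM of the authors, Sparc, a collagen-binding matricellular protein, was the most abundant member in 5 of the 6 groups. It reached 7702 ± 1420 FPKM in CD31 lung libraries. In PDGFRb lung libraries the leading member was Spp1 (osteopontin, a secreted integrin and CD44 ligand) at 11450 ± 2264 FPKM. By mean FPKM, 40 of the 42 members had their highest level in a PDGFRb group, 24 of them in breast BrM, 13 in non-tumor brain and 3 in lung BrM (Fbln2, Fn1 and Spp1). The other two were Fbln5, highest in CD31 non-tumor libraries, and Sparc, highest in CD31 lung libraries. For 38 of the 42 members the highest group was the same by CPM.

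The 42 members together held 0.489% to 0.576% of all counts in CD31 non-tumor libraries, 0.78% to 1.38% in CD31 breast and 1.22% to 1.62% in CD31 lung libraries. In the PDGFRb sort they held 0.441% to 0.83% in non-tumor, 1.05% to 2.51% in breast and 1.49% to 2.71% in lung libraries. Neither BrM range overlapped the non-tumor range of its sort. In PDGFRb lung libraries most of this share came from Spp1 (8910 to 15130 CPM) and Fn1 (1888 to 3662 CPM). All 42 members together held 14390 to 28270 CPM there, and their median log2 change against non-tumor brain was -0.64. The map of all members by library shows the levels behind this share.

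**Figure D2:**
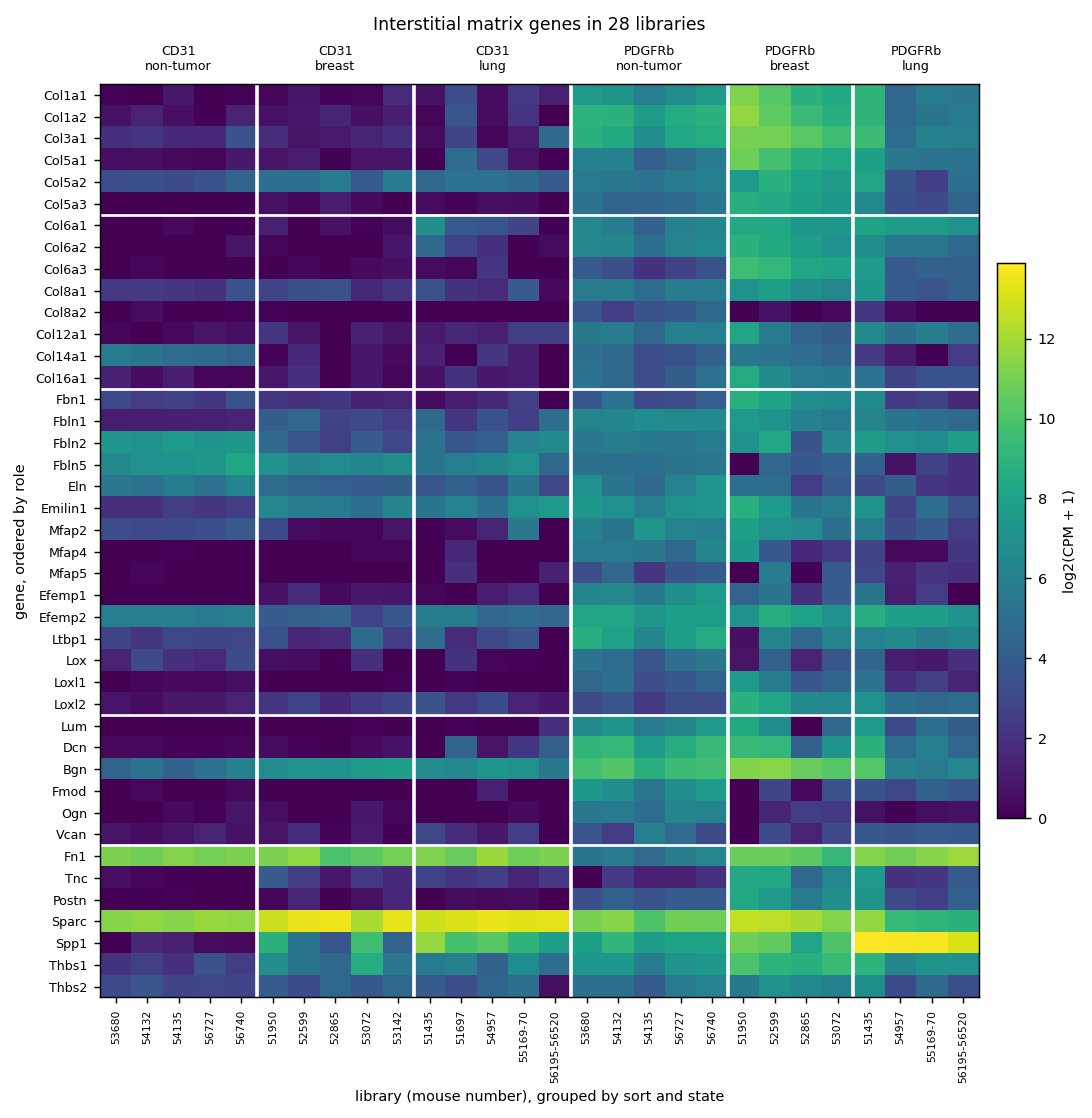
Levels of the 42 members (lines, grouped by role) in the 28 libraries (columns, grouped by sort and state) as log2(CPM + 1). High levels are bright and low levels dark. Most collagens and proteoglycans are bright across the PDGFRb non-tumor and breast libraries and dark in the CD31 libraries, where Sparc and Fn1 stand out as bright.

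The first comparison set the PDGFRb sort against the CD31 sort in non-tumor brain, 5 libraries each. Of the 42 members, 33 were higher in PDGFRb libraries, 3 were higher in CD31 libraries and 6 were not called, at an adjusted p under 0.05 in edgeR's quasi-likelihood test. Over all 18548 genes tested, 27.9% were called, 17.4% higher and 10.5% lower in the PDGFRb sort. The median log2 difference was 5.81 over the members and 0.1 over all genes. Libraries of the 2 sorts did not overlap for 37 of the 42 members and for 36.5% of all genes.

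All 6 fibrillar collagens were higher in the PDGFRb sort. Col1a1, a chain of type I collagen, stood at 181, 144, 61.5, 105 and 175 CPM in PDGFRb libraries and at 0.108, 0, 0.851, 0 and 0.102 CPM in CD31 libraries. Every PDGFRb library lay far above every CD31 library, and the log2 difference was 9.24 ± 1.3 (adjusted p = 2.7e-06). Col5a3, a chain of type V collagen, which starts and sizes fibrils, had 3163 counts over the 5 PDGFRb libraries and 1 over the 5 CD31 libraries, a ratio of 2675 with an exact 95% counting interval of 479.7 to 105700. Without the CD31 library of mouse 54135 the Col1a1 difference was 11.06, and without that of mouse 56740, which held the single count, the fitted log2 difference of Col5a3 moved from 10.68 to 12.03. The remaining CD31 controls had no Col5a3 counts, so 12.03 is no measure of size.

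Of the 8 other collagens, 7 were higher in the PDGFRb sort and Col14a1, a collagen attached to fibril surfaces, was not called (log2 difference -0.78 ± 0.98, adjusted p = 0.65). Col6a1, a chain of the beaded filament collagen VI, stood at 87.4, 56.3, 18.7, 65.3 and 80 CPM in PDGFRb libraries and at 0.0538, 0, 0.227, 0 and 0 CPM in CD31 libraries. The PDGFRb library of mouse 54135 was the lowest of its group and the CD31 library of the same number the highest of its own, yet the groups did not overlap (log2 difference 9.92 ± 1.3, adjusted p = 2e-06, and 11.51 without the CD31 library of mouse 54135). The partner chain Col6a2 was counted in 1 CD31 library, that of mouse 56740 at 0.664 CPM, and stood at 32.7 to 87.3 CPM in PDGFRb libraries. Its log2 difference was 8.91 ± 1.4 (adjusted p = 1.5e-05), and the fitted value was 13.27 without that library. The remaining CD31 controls had no Col6a2 counts, so 13.27 is no measure of size.

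Proteoglycans had the largest median log2 difference of the 5 roles, 8.95. Dcn (decorin, a small proteoglycan that binds collagen fibrils) stood at 564, 597, 205, 407 and 657 CPM in PDGFRb libraries and at 0.215, 0.249, 0.114, 0.117 and 0.204 CPM in CD31 libraries, a log2 difference of 11.35 ± 1.5 (adjusted p = 1.1e-06). Lum (lumican), a relative of decorin, had 11681 counts in the PDGFRb and none in the CD31 libraries, at least 3292-fold higher against a floor of 3 counts over the group. All 6 proteoglycans were called higher in the PDGFRb sort, the others being Bgn, Fmod, Ogn and Vcan. Vcan moved from 4.84 to 4.11 on the log2 scale without the PDGFRb library of mouse 54135 and Ogn from 7.90 to 9.02 without the CD31 library of mouse 56740.

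Of 15 elastic fiber and crosslinking genes, the PDGFRb sort was higher for 9 and the CD31 sort for 2. Efemp1, a fibulin, had 11234 counts in the PDGFRb and none in the CD31 libraries, at least 3166-fold higher. Mfap4, which binds microfibrils, stood at 53.7, 49.9, 46.8, 25.1 and 78 CPM in PDGFRb libraries and at 0.0538, 0.0622, 0.114, 0 and 0 CPM in CD31 libraries (log2 difference 9.92 ± 1.7, adjusted p = 7.8e-05). The 2 genes higher in the CD31 sort were Fbln2 (log2 difference -1.68 ± 0.57, adjusted p = 0.026) and Fbln5 (log2 difference -2.15 ± 0.7, adjusted p = 0.021), 2 fibulins of elastic fibers and vessel walls. Fbln2 was not called when any of 4 libraries was left out (CD31 54135, PDGFRb 53680, 54135 or 56727, log2 -1.64 to -1.44). Fbln5 was not called without PDGFRb 54135 (-2.05), PDGFRb 56727 (-1.97) or CD31 56740 (-1.82).

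Fn1 (fibronectin, the main adhesive glycoprotein of early matrix) went the other way from the collagens. It stood at 2258, 1847, 2526, 2031 and 2280 CPM in CD31 libraries and at 40.4, 52.8, 27.8, 59.2 and 86 CPM in PDGFRb libraries. No PDGFRb library came near the lowest CD31 library, and the log2 difference was -5.36 ± 0.36 (adjusted p = 1.6e-11). Spp1 was at 225, 559, 193, 265 and 255 CPM in PDGFRb and 0, 2.05, 1.36, 0.35 and 0.256 CPM in CD31 libraries (log2 difference 8.55 ± 1.2, adjusted p = 3.6e-06, and 9.24 without CD31 54132), but limma-voom gave an adjusted p of 0.15. Postn (periostin, a matricellular protein of collagen-rich tissue) had 1483 counts in the PDGFRb and 2 in the CD31 libraries, a ratio of 627 with an exact counting interval of 173.3 to 5182. Sparc was abundant in both sorts, at 2953 ± 323 CPM in CD31 and 1896 ± 585 CPM in PDGFRb libraries, and was not called (log2 difference -0.64 ± 0.39, adjusted p = 0.25).

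Markers of other cells moved with these differences. Summed over 12 markers of perivascular fibroblasts, PDGFRb non-tumor libraries held 407 to 988 CPM with 11 markers above a mean of 1 CPM, and CD31 non-tumor libraries held 9.36 to 21.9 CPM with Slc22a6, Dpt and Aldh1a2 at 0. Summed over 8 smooth muscle markers they held 4610 to 24500 CPM and 36.7 to 100 CPM, with 8 and 5 markers above a mean of 1 CPM. Over 6 astrocyte markers they held 187 to 1830 CPM and 6.64 to 31.7 CPM, with 6 and 4 above that mean. Their part in the sort differences was not tested.

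The second comparison asked how the CD31 sort differed between breast BrM and non-tumor brain, 5 libraries each. Of the 42 members, 32 passed the filter on low counts, 10 of them were higher in breast BrM, 4 were lower and 18 were not called. Over all 14876 genes tested, 30.1% were called, 18.6% higher and 11.4% lower. The 10 members that failed the filter were Col5a3, Col6a3, Col8a2, Mfap4, Mfap5, Loxl1, Lum, Fmod, Ogn and Postn. The median log2 change was 0.6 over the members tested and 0.04 over all genes, and the groups did not overlap for 13 members and for 37.8% of all genes.

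In lung BrM, set against the same 5 control libraries, 16 members were higher, 4 were lower and 12 were not called. Over all genes 34.8% were called, 20.4% higher and 14.5% lower. The median log2 change was 1.69 over the members and 0 over all genes, and the groups did not overlap for 9 members and for 30.6% of all genes. Both BrM comparisons share the control libraries, so their values are given side by side only.

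Adhesive and matricellular genes had the largest median log2 change of the 5 roles, 3.16 in breast and 2.62 in lung BrM, with 4 of 6 tested higher in each. Sparc stood at 2677, 3015, 2610, 3409 and 3055 CPM in non-tumor, 6971, 11580, 12070, 4426 and 10430 CPM in breast and 7157, 9280, 11460, 9740 and 10360 CPM in lung libraries. The lowest BrM library lay above the highest control, with log2 changes of 1.65 ± 0.23 (adjusted p = 4.5e-05) in breast and 1.76 ± 0.23 (adjusted p = 2.3e-05) in lung BrM. Spp1 stood at 0, 2.05, 1.36, 0.35 and 0.256 CPM in non-tumor, 477, 38.1, 12, 796 and 19.8 CPM in breast and 3246, 909, 1249, 522 and 223 CPM in lung libraries. Every BrM library exceeded every control, but the BrM values spread over more than an order of magnitude.

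The log2 changes of Spp1 were 8.47 ± 1.4 (adjusted p = 0.00028) in breast and 10.66 ± 1.5 (adjusted p = 6e-05) in lung BrM. The highest Spp1 value of each BrM group came from the library with the largest epithelial marker sum, mouse 53072 with 3050 CPM in breast and mouse 51435 with 2270 CPM in lung BrM. Without libraries above 1000 CPM of epithelial markers (51950 and 53072 in breast, 51435 and 51697 in lung), Spp1 remained called at 4.89 in breast and 9.74 in lung BrM. Without single libraries it ranged from 7.46 (without 53072) to 9.15 (without control 54132) in breast and from 9.91 (without 51435) to 11.35 (without control 54132) in lung BrM.

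Thbs1 (thrombospondin-1, an inhibitor of angiogenesis that binds matrix) stood at 3.07, 5.29, 2.61, 10 and 4.29 CPM in non-tumor, 114, 41.6, 24.6, 391 and 44 CPM in breast and 49, 65.3, 19, 106 and 31.7 CPM in lung libraries. The log2 changes were 4.67 ± 0.77 (adjusted p = 0.00024) and 3.48 ± 0.73 (adjusted p = 0.0016), and the breast value was 3.49 without mouse 53072 and 2.87 without both libraries rich in epithelial markers. Tnc (tenascin-C, a glycoprotein of remodelled matrix) was also called in both, at 5.23 ± 1.1 and 4.86 ± 1 (adjusted p = 0.0013 and 0.0019), from 0.135 ± 0.182 CPM to 5.22 ± 5.46 and 3.94 ± 1.63 CPM. Its breast change was 4.39 without mouse 51950 and 6.32 without control 53680, and its lung change 5.98 without that control. Fn1 was not called in either BrM group (log2 change -0.16 ± 0.25, adjusted p = 0.69, and 0.14 ± 0.25, adjusted p = 0.7), with means of 2189 ± 259, 1927 ± 781 and 2319 ± 749 CPM in non-tumor, breast and lung libraries.

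Elastic fiber genes moved in both directions, with 4 higher and 3 lower of 12 tested in each BrM group. Emilin1, a glycoprotein found between elastin and microfibrils, stood at 2.85, 2.67, 4.99, 3.56 and 5.06 CPM in non-tumor, 83.6, 58.6, 52.1, 33.1 and 79.4 CPM in breast and 40.3, 70.9, 32.9, 123 and 174 CPM in lung libraries. The lowest BrM library was several times the highest control, with log2 changes of 4.02 ± 0.45 (adjusted p = 5.3e-06) and 4.59 ± 0.46 (adjusted p = 1.8e-06). Fbln2 fell in both, from 149, 138, 189, 143 and 168 CPM to 26.9, 11.9, 5.21, 14.8 and 6.81 CPM in breast and 37.8, 13.3, 16.6, 69.2 and 101 CPM in lung libraries. All 10 BrM libraries lay below the lowest control, and the log2 changes were -3.55 ± 0.55 (adjusted p = 0.00013) and -1.66 ± 0.51 (adjusted p = 0.018).

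Fbln1, another fibulin, stood at 1.08, 1.24, 1.25, 1.34 and 1.58 CPM in non-tumor, 16.4, 25.1, 6.24, 8.22 and 4.83 CPM in breast and 25.7, 3.61, 10.4, 4.69 and 29.6 CPM in lung libraries (log2 change 3.25 ± 0.65, adjusted p = 0.0011, and 3.58 ± 0.66, adjusted p = 0.00053). Efemp1, without counts in control libraries, had 80 counts over the breast and 58 over the lung libraries, at least 26.98-fold and at least 22.38-fold higher (adjusted p = 0.0083 and 0.011). Loxl2, a lysyl oxidase that crosslinks collagen, rose by 2.32 ± 0.7 and 2.55 ± 0.71 on the log2 scale (adjusted p = 0.019 and 0.01). The breast call of Loxl2 was lost without control 54132 (2.14, adjusted p = 0.052).

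Eln (elastin) fell in both BrM groups (log2 change -1.3 ± 0.4, adjusted p = 0.021, and -1.42 ± 0.4, adjusted p = 0.012). Its breast call was lost without 52865 (-1.24), 53142 (-1.22) or control 56740 (-1.11). Efemp2, a fibulin that guides elastin assembly, fell in breast BrM (log2 change -2.04 ± 0.33, adjusted p = 2e-04), and Fbln5 fell in lung BrM (log2 change -1.22 ± 0.36, adjusted p = 0.014), where it was not called without control 56740 (-0.9, adjusted p = 0.056). Without the lung libraries rich in epithelial markers, Fbln2 (-1.28), Fbln5 (-1.04), Eln (-1.3) and Loxl2 (1.94) were no longer called in lung BrM, with adjusted p of 0.055 to 0.11.

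Of the fibrillar collagens, Col5a2 rose in both BrM groups. It stood at 9.09, 9.39, 8.4, 10.4 and 20.7 CPM in non-tumor, 33, 30.9, 49, 15.1 and 51.9 CPM in breast and 23.5, 37.9, 34.7, 26.4 and 15.1 CPM in lung libraries. Control 56740 lay above the lowest library of each BrM type, and the log2 changes were 1.66 ± 0.35 (adjusted p = 0.0019) and 1.3 ± 0.35 (adjusted p = 0.0084). Col1a1 and Col5a1 were called in lung BrM alone (log2 change 3.84 ± 1.3, adjusted p = 0.034, and 4.07 ± 1.5, adjusted p = 0.041), from means of 0.212 and 0.438 CPM to 3.02 ± 3.58 and 7.09 ± 12.1 CPM. Both calls were lost without mouse 51697, at log2 2.88 and 2.05, and in all under 5 and 9 of 15 left-out libraries. The Col1a1 change was 5.71 without control 54135. Neither gene was called without the lung libraries rich in epithelial markers (Col1a1 3.15, adjusted p = 0.11, and Col5a1 2.47, adjusted p = 0.18).

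Col14a1 fell in both BrM groups. It stood at 49.4, 41.4, 28.9, 26.6 and 20.3 CPM in non-tumor, 0.0942, 2.09, 0, 0.817 and 0.254 CPM in breast and 1.46, 0, 3.58, 1.24 and 0 CPM in lung libraries. Every BrM library lay below every control, with log2 changes of -5.69 ± 1.2 (adjusted p = 0.0017) (-6.78 without 52599) and -4.69 ± 1.1 (adjusted p = 0.0043) (-5.52 without 54957). Col6a1 rose in lung BrM, where it stood at 114, 14.1, 12.2, 6.5 and 0.0621 CPM (log2 change 8.92 ± 1.7, adjusted p = 0.00062). Mouse 51435 gave by far the highest Col6a1 value, and the change was 7.08 without it and 10.49 without control 54135. Col6a2 and Col12a1 were also called in lung BrM (log2 change 5.62 ± 1.8, adjusted p = 0.024, and 3.33 ± 1.1, adjusted p = 0.028), Col6a2 not without 51435 (4.04, adjusted p = 0.087). Without control 56740, the only control with Col6a2 counts, the fitted Col6a2 change was 9.84, which is no measure of size. The calls of Col6a2 and Col12a1 were lost under 5 and 4 of 15 left-out libraries. Without the lung libraries rich in epithelial markers Col6a1 was at 6.63 and Col6a2 at 2.85, the latter not called (adjusted p = 0.28).

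Bgn (biglycan, a proteoglycan that binds collagen and growth factors) rose from 21.2, 38, 18.8, 34.7 and 66.5 CPM in non-tumor to 102, 148, 130.2, 191 and 225 CPM in breast and 103, 83.6, 163, 135 and 47.2 CPM in lung libraries. The breast libraries lay above all controls and the lung libraries overlapped them through control 56740 (log2 change 2.19 ± 0.36, adjusted p = 0.00022, and 1.62 ± 0.35, adjusted p = 0.002). Dcn was called in lung BrM (log2 change 5.57 ± 1.4, adjusted p = 0.0045, 4.96 without 51697), at 0, 20.2, 0.644, 3.73 and 17.3 CPM, where 2 libraries carried most of the counts.

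Other cells' markers moved with these changes. The epithelial sum was higher in every CD31 BrM library than in any control, with 11 of 12 markers above a mean of 1 CPM in breast and 10 of 12 in lung BrM, against 2 in controls. The pericyte sum was 26.5 to 105 CPM in breast, 25.9 to 228 CPM in lung and 15.9 to 46.5 CPM in non-tumor libraries, and the largest value belonged to lung library 51697. The fibroblast sum was 16.9 to 47.5, 19.9 to 63.8 and 9.36 to 21.9 CPM. Single markers of the pericyte and fibroblast lists went in both directions. Mean Abcc9 (pericyte) was 0.593 CPM in non-tumor, 27.2 CPM in breast and 39.8 CPM in lung libraries. Rgs5 (pericyte) was at 16.9, 2.24 and 5.5 CPM in the same order. Among fibroblast markers Lama1 was at 3.17, 13.2 and 29.4 CPM and Cyp1b1 at 4.42, 0.419 and 0.634 CPM. The endothelial sum was 5930 to 12800 CPM in breast and 8620 to 13000 CPM in lung libraries, below the 21200 to 22200 CPM of controls. The macrophage sum, with Aif1 at 0 in controls, was 1.95 to 57.3, 10.3 to 164 and 1.23 to 6.82 CPM. Beyond the values without the epithelial-rich libraries, their part in the changes was not tested. With the date in the column names as a covariate, 6 of the 20 members called in lung BrM were called, and no date holds both BrM types. Among the 14 lost lung calls, Thbs1 went from 3.48 to 1.89, Col5a1 from 4.07 to 2.61 and Col6a2 from 5.62 to 2.19, while Col1a1 (3.9), Fbln1 (3.85), Dcn (5.84) and Col6a1 (9.68) did not come nearer to 0. The other lost lung calls in edgeR were Fbln2 (-1.31, adjusted p = 0.33), Col14a1 (-3.7, 0.29), Bgn (1.1, 0.22) and Col5a2 (0.72, 0.44). Loxl2 (1.84, adjusted p = 0.34), Col12a1 (2.66, 0.32) and Efemp1 (6.27, 0.18) were lost too. In breast BrM the same covariate ended the calls of Fbln1 (3.4, adjusted p = 0.055), Efemp1 (7.03, adjusted p = 0.11) and Loxl2 (2.43, adjusted p = 0.16). With no filter on low counts, edgeR did not call Fbln2 (-1.69, adjusted p = 0.066) and Col12a1 (3.31, 0.053) in lung BrM. The breast call of Loxl2 was also lost there (2.31, adjusted p = 0.053). Within single dates (2 or 3 BrM and 1 or 2 control libraries) every called member kept its direction. These libraries also gave the calls, so this is no separate test.

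Lung and breast BrM were compared directly in the CD31 sort. Of 32 members tested, 2 were higher in lung BrM and none lower, against 2.13% of all genes called, 0.578% higher and 1.55% lower. An unadjusted p under 0.05 in edgeR was found for 7 members. The share of all genes at that threshold was not taken, so this count cannot be judged. The groups did not overlap for 1 member and for 4.18% of all genes. Col6a1 was higher in lung BrM (1.46, 0, 0.572, 0.117 and 0.356 CPM in breast libraries, 5.86 ± 1.4, adjusted p = 0.034), and without mouse 51435 the change was 4.04 with an adjusted p of 0.13. It was also not called without the libraries rich in epithelial markers (4.26, adjusted p = 0.24), in limma-trend (4.52, adjusted p = 0.16) or with no filter on low counts (5.84, adjusted p = 0.099). Efemp2 stood at 15.7, 17.3, 20.1, 5.83 and 13 CPM in breast and 55.9, 56.9, 22.8, 28.1 and 23.3 CPM in lung libraries (log2 difference 1.42 ± 0.32, adjusted p = 0.028), and it was not called without the epithelial-rich libraries either (0.59, adjusted p = 0.18). Both calls were lost under 5 of 15 left-out libraries, in 4 of them for Col6a1 when a breast library was absent.

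**Figure D3:**
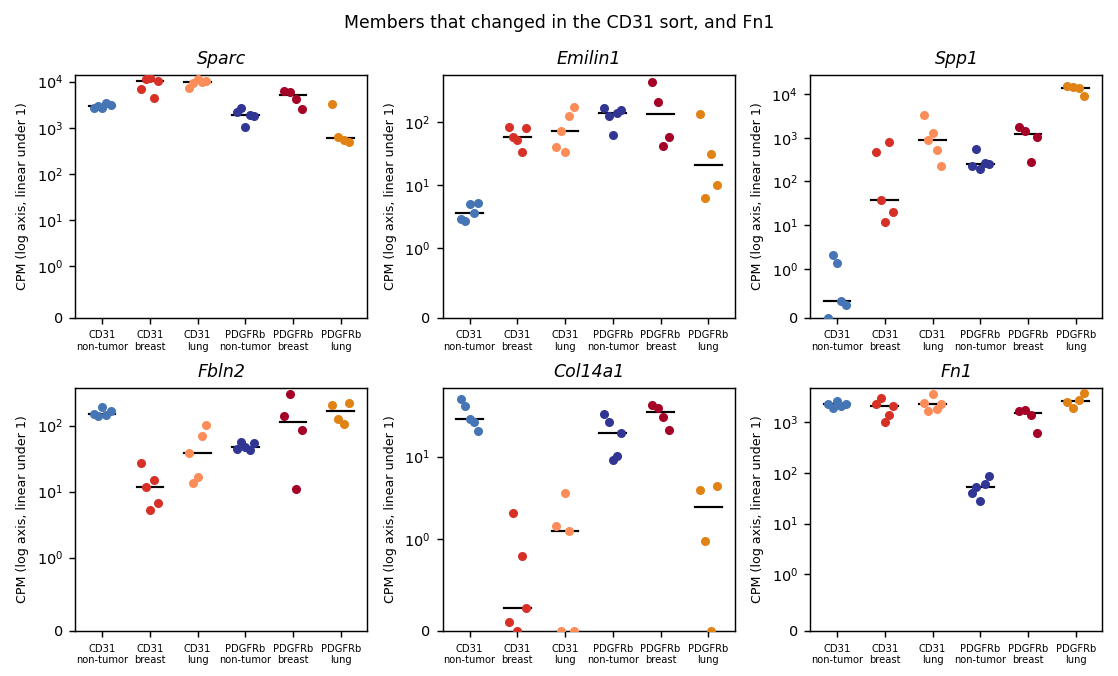
CPM (log axis, linear under 1) of Sparc, Emilin1, Spp1, Fbln2, Col14a1 and Fn1 in the libraries of both sorts and each state, 1 point per library with a line at the median. In the CD31 sort, Sparc, Emilin1 and Spp1 libraries of both BrM groups lie above all 5 controls. Fbln2 and Col14a1 libraries of that sort lie below its controls, and Fn1 libraries overlap.

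In the PDGFRb sort, breast BrM was compared with non-tumor brain over 4 and 5 libraries. All 42 members passed the filter, of which 14 were higher in breast BrM, 3 were lower and 25 were not called. Over all 17028 genes tested, 8.99% were called, 6.3% higher and 2.69% lower. The median log2 change was 1.36 over the members and -0.16 over all genes, and the groups did not overlap for 23 members and for 17.9% of all genes. By role, 3 of 6 fibrillar collagens, 4 of 8 other collagens, 2 of 15 elastic fiber and crosslinking genes, 0 of 6 proteoglycans and 5 of 7 adhesive and matricellular genes rose.

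The type V collagen chains Col5a1 and Col5a3 had the largest changes among the fibrillar collagens. Col5a1 stood at 64.3, 67.8, 17.6, 29 and 51.6 CPM in non-tumor and 1783, 868, 417 and 316 CPM in breast libraries (log2 change 4.22 ± 0.68, adjusted p = 0.0023). Col5a3 stood at 38.4, 21.4, 22.2, 25.9 and 42.1 CPM in non-tumor and 436, 329, 234 and 172 CPM in breast libraries (log2 change 3.32 ± 0.61, adjusted p = 0.005). Neither gene overlapped between the groups, the highest breast value of each came from mouse 51950, and without that library the Col5a1 change was 3.55. Col1a1 rose from 133 ± 50.3 to 1072 ± 904 CPM (log2 change 3.03 ± 0.81, adjusted p = 0.033), and this call was lost under 7 of 13 left-out libraries, with the smallest change, 2.31, without 51950. Col1a2, Col3a1 and Col5a2 were not called, with log2 changes of 1.84, 2.30 and 2.51 and adjusted p of 0.16, 0.072 and 0.073.

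All 3 collagen VI chains rose. Col6a3 stood at 14.2, 8.95, 3.06, 5.61 and 9.9 CPM in non-tumor and 766, 589, 300.4 and 268 CPM in breast libraries, far apart, with a log2 change of 5.88 ± 0.84 (adjusted p = 0.0011). Col6a1 and Col6a2 rose by 2.01 ± 0.4 and 2.06 ± 0.47 on the log2 scale (adjusted p = 0.0072 and 0.016). Col8a2, a chain of the network-forming collagen VIII, fell from 11.6, 4.68, 10.8, 13.3 and 23.6 CPM to 0, 0.585, 0.0421 and 0.285 CPM (log2 change -5.64 ± 1.5, adjusted p = 0.035). The Col8a2 call was lost under 7 of 13 left-out libraries, and the change was -6.69 without 52599. Col16a1, a collagen attached to fibrils and microfibrils, was called (log2 change 2.48 ± 0.71, adjusted p = 0.044) but not under 10 of 13 left-out libraries, with 1.38 without 51950.

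Loxl2 led the crosslinking genes. It stood at 8.15, 12, 4.01, 9.06 and 8.59 CPM in non-tumor and 468, 295, 92.1 and 88.1 CPM in breast libraries, without overlap (log2 change 4.84 ± 0.65, adjusted p = 0.00071). Fbn1 (fibrillin-1, the backbone of microfibrils) stood at 13.3, 35.3, 7.43, 8.92 and 16.9 CPM and 447, 263, 106 and 94.7 CPM in the same groups (log2 change 3.82 ± 1, adjusted p = 0.031), and its call was lost under 6 of 13 left-out libraries, with 3.25 without 51950. The other 13 genes of this role were not called, among them Lox at -1.88, Eln at -1.99 and Ltbp1 at -2.49, with adjusted p of 0.31, 0.11 and 0.084.

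The 2 proteoglycans that changed both fell. Ogn (osteoglycin) stood at 46.7, 53.3, 29.9, 78.9 and 70.5 CPM in non-tumor and 0, 1.75, 4.67 and 4.07 CPM in breast libraries (log2 change -4.34 ± 0.96, adjusted p = 0.014). Fmod (fibromodulin), which like osteoglycin belongs to the leucine-rich family that regulates collagen fibrils, stood at 171, 110.5, 42.3, 112 and 179 CPM and 0, 6.38, 0.294 and 9.77 CPM (log2 change -4.84 ± 1.1, adjusted p = 0.016, and -5.75 without 53072). No breast library reached the lowest control for either gene. Lum, Dcn, Bgn and Vcan were not called, with log2 changes of 0.12, -0.45, 1.36 and -2.39.

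Fn1 and Tnc rose strongly. Fn1 stood at 40.4, 52.8, 27.8, 59.2 and 86 CPM in non-tumor and 1647, 1677, 1346 and 605 CPM in breast libraries, a log2 change of 4.66 ± 0.38 (adjusted p = 3.4e-05). Tnc stood at 0, 3.91, 1.44, 1.41 and 3.14 CPM and 332, 326, 25.1 and 89.3 CPM (log2 change 6.62 ± 1.4, adjusted p = 0.012). For both genes the lowest breast library was several times the highest control. Postn, Spp1 and Thbs1 also rose, by 3.56 ± 0.85, 1.95 ± 0.43 and 2.23 ± 0.47 (adjusted p = 0.019, 0.013 and 0.011), and the Postn call was lost without control 53680 (3.44), 54135 (3.43), 56727 or 56740 (3.6 each). Sparc was not called (log2 change 1.35 ± 0.5, adjusted p = 0.11).

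For Col1a1, Col5a1, Col5a3, Col6a3, Loxl2 and Fbn1 the breast library of mouse 51950 was the highest and that of mouse 53072 the lowest. For mice 51950, 52599, 52865 and 53072 in this order the pericyte sum was 15400, 12300, 10700 and 5480 CPM, the epithelial sum 1080, 1910, 2240 and 4120 CPM the fibroblast sum 858, 666, 102 and 246 CPM and the smooth muscle sum 12000, 4340, 5020 and 2560 CPM. In non-tumor libraries the fibroblast sum was 407 to 988 CPM and the smooth muscle sum 4610 to 24500 CPM. Dpt was at 0 in breast BrM, but its mean was only 0.298 CPM in controls. Other fibroblast markers went in both directions. Between controls and breast BrM, mean Slc6a13 went from 183 to 17.3 CPM and Slc22a6 from 53.1 to 3.27 CPM. Aldh1a2 went from 37.2 to 90.4 CPM and Crabp2 from 6.34 to 24.6 CPM. The part of these cells in the changes was not tested. With the date as a covariate, 4 of the 17 members were called in breast BrM (Col6a3, Loxl2, Fn1 and Thbs1). The lost calls included Col5a1 (4.59, adjusted p = 0.052) and Col5a3 (3.34, adjusted p = 0.066). All 17 kept their direction within each of 2 dates, over libraries that also gave the calls.

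**Figure D4:**
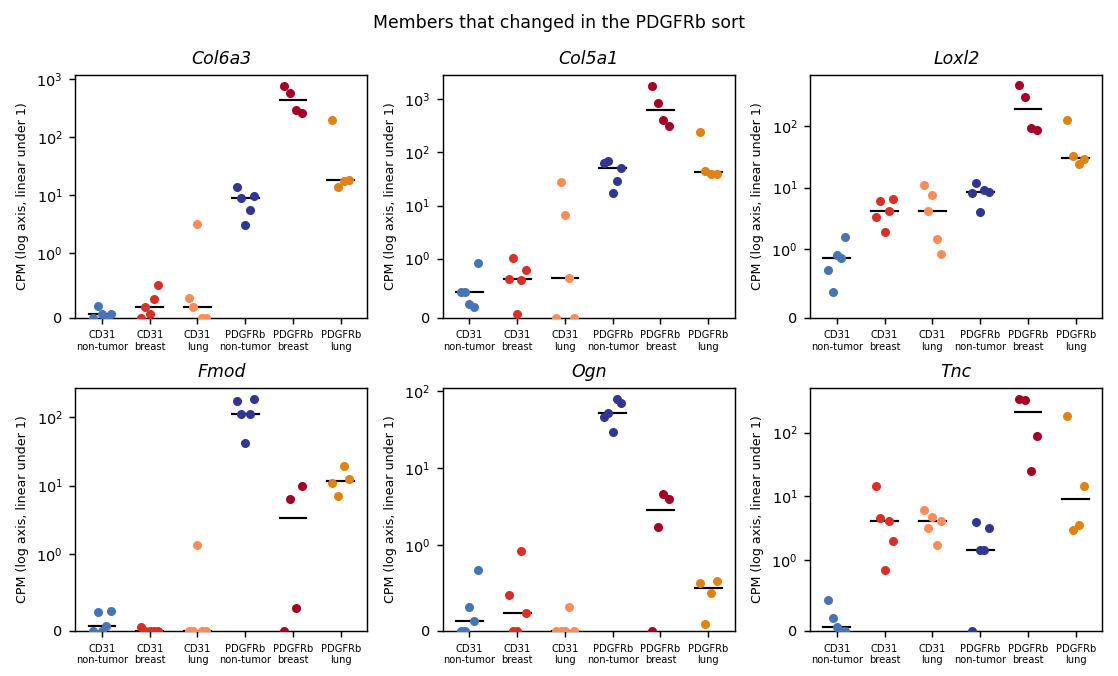
CPM (log axis, linear under 1) of Col6a3, Col5a1, Loxl2, Fmod, Ogn and Tnc in the libraries of both sorts and each state, 1 point per library with a line at the median. In the PDGFRb sort, all 4 breast libraries lie above the 5 controls for Col6a3, Col5a1, Loxl2 and Tnc and below them for Fmod and Ogn. In the PDGFRb lung group mouse 51435 lies apart from the other 3 for Col6a3 and Col5a1.

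The libraries labelled PDGFRb lung BrM were compared with the same 5 controls. Of the 42 members, 6 were higher, 4 were lower and 32 were not called. Over all genes 17.5% were called, 9.91% higher and 7.58% lower. The median log2 change was -0.64 over the members and -0.03 over all genes, and the groups did not overlap for 13 members and for 36% of all genes. Without the library of mouse 51435, the 1 lung library with abundant pericyte markers, 20 members were called, 4 higher and 16 lower. Without breast library 51950, which takes part in the estimate of the spread, 17 were, 7 higher and 10 lower. The share of all genes called in these refits was not taken, so their counts are not a result about the members.

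Spp1 stood at 15130, 14130, 13710 and 8910 CPM in lung libraries, against 299 ± 148 CPM in controls (log2 change 5.48 ± 0.49, adjusted p = 1.5e-05). Fn1 stood at 2511, 1888, 2643 and 3662 CPM, against 53.2 ± 21.9 CPM in controls (log2 change 5.70 ± 0.39, adjusted p = 1.3e-06). All 4 lung libraries lay far above all controls for both genes, mouse 51435 included, and both were still called with 51435 as the only lung library, a fit whose 1 lung sample is assumed to vary like the other groups.

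Col6a3 stood at 201, 14, 17.8 and 18.3 CPM (log2 change 2.91 ± 0.75, adjusted p = 0.016), high in mouse 51435 and close to the controls' 8.34 ± 4.24 CPM in the other 3, and without mouse 51435 it was not called (0.98, adjusted p = 0.15). Tnc stood at 180.0, 3.01, 3.58 and 14.5 CPM (log2 change 4.63 ± 1.3, adjusted p = 0.027) and was likewise not called without 51435 (1.79, adjusted p = 0.26), nor without control 54135 (4.54), 56727 (4.53) or 56740 (4.85). Loxl2 was called with all libraries (log2 change 2.66 ± 0.6, adjusted p = 0.0084) and without 51435 (1.74, adjusted p = 0.031). Col6a1 stood at 266, 195, 196 and 129 CPM against 87.4, 56.3, 18.7, 65.3 and 80 CPM in controls (log2 change 1.71 ± 0.39, adjusted p = 0.0094), higher in all 4 lung libraries.

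Ogn fell furthest, to 0.564, 0.0753, 0.441 and 0.586 CPM in all 4 lung libraries (log2 change -6.99 ± 1.1, adjusted p = 0.00093). Eln stood at 128, 41.3, 26, 69.7 and 148 CPM in controls and 8, 16, 3.37 and 2.81 CPM in lung libraries (log2 change -3.40 ± 0.79, adjusted p = 0.01, and -4.1 without 54957). Fmod stood at 10.8, 7, 19.1 and 12.5 CPM (log2 change -3.26 ± 1, adjusted p = 0.041) and Mfap4 at 6.1, 0.226, 0.276 and 3.81 CPM (log2 change -4.26 ± 1.3, adjusted p = 0.043), and each of these calls was lost under 8 of 13 left-out libraries. No fibrillar collagen was called in edgeR, and none had an unadjusted p under 0.05. That rested on the library of mouse 51435.

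Col1a2 stood at 496, 465, 201, 369.6 and 490.1 CPM in controls and 522, 24, 39.2 and 49.6 CPM in lung libraries, the first of which is mouse 51435. Col1a1 stood at 516, 23.7, 57.3 and 44.1 CPM and Col3a1 at 729, 28.9, 68.5 and 60.1 CPM in lung libraries, beside 61.5 to 181 CPM and 113 to 462 CPM in controls. For all 3 genes mouse 51435 lay above every control and the other 3 lung libraries below every control. Without mouse 51435, Col1a2 (-3.45, adjusted p = 0.0015) and Col3a1 (-2.64, adjusted p = 0.0022) were called lower and Col1a1 was not called (-1.7, adjusted p = 0.058). With mouse 51435 as the only lung library, Col5a2 was called higher (2.38, adjusted p = 0.032).

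The pericyte and epithelial sums of these libraries are given above. The fibroblast sum was 450 CPM in mouse 51435 and 48.6 to 115 CPM in the other 3 lung libraries, the smooth muscle sum 3660 CPM and 135 to 292 CPM, and the astrocyte sum 207 CPM and 52.6 to 75.6 CPM. In the fit with mouse 51435 as the only lung library, Col6a1 (2.08), Ogn (-6.65), Eln (-3.4), Fmod (-3.54) and Mfap4 (-3.09) kept their direction and were not called. The part of other cells in these values was not tested. With the date as a covariate 3 members were called. Fn1 and Spp1 were among them, and the third was not among the 10 called in the main fit. Calls lost in edgeR with that covariate were Ogn (-7.68, adjusted p = 0.11), Eln (-3.45, 0.22), Loxl2 (1.88, 0.28) and Mfap4 (-4.58, 0.31). Fmod (-3.82, adjusted p = 0.35), Col6a1 (1.24, 0.37), Col6a3 (1.14, 0.47) and Tnc (2.02, 0.64) were lost too.

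Breast and lung BrM were then set against each other in the PDGFRb sort, 4 libraries each. Of 42 members, 6 were lower in lung BrM and 1 was higher, against 5.47% of all genes called, 2.39% lower and 3.08% higher. The median log2 difference was -1.89 over the members and 0.07 over all genes, 34 members had a negative difference, and the groups did not overlap for 11 members and for 16.8% of all genes. Spp1 was higher in lung BrM (1789, 1443, 274 and 1046 CPM in breast libraries, 3.53 ± 0.49, adjusted p = 0.0013), without overlap and under every left-out library.

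The 6 members lower in lung BrM were Col5a1, Col5a3, Col6a2, Col6a3, Col16a1 and Sparc. Col5a1 stood at 239, 45.5, 38.6 and 38.7 CPM and Col5a3 at 89.8, 9.41, 8.33 and 21.4 CPM in lung libraries (log2 difference -3.24 ± 0.72, adjusted p = 0.02, and -3.21 ± 0.67, adjusted p = 0.015). Col16a1 stood at 359.6, 96.9, 50.6 and 47.1 CPM in breast and 37.5, 5.42, 10.2 and 10.2 CPM in lung libraries (log2 difference -3.13 ± 0.79, adjusted p = 0.035). In the lung group mouse 51435 was the highest for all 3 genes. Sparc stood at 6280, 5871, 4223 and 2533 CPM in breast and 3236, 622, 547 and 488 CPM in lung libraries, where mouse 51435 overlapped the breast range (-1.98 ± 0.54, adjusted p = 0.05 after rounding and under the threshold).

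Without mouse 51435 the differences of these 6 genes were larger (Col5a1 -4.35, Col5a3 -4.48, Col6a2 -2.98, Col6a3 -4.84, Col16a1 -3.98 and Sparc -3.09) and 24 members were called. The share of all genes called without that library was not taken. Under the other left-out libraries the number of called members fell as low as 1, without lung label 56195-56520. It was 2 without 54957, 3 without 55169-70 or breast library 52599, and 4 without control 53680 or 54132. Col6a3 and Sparc were each lost under 12 of 13 left-out libraries, and Col16a1 was -2.06 without breast library 51950. With 51435 as the only lung library, its spread again taken from the other groups, the differences were -1.81 for Col5a1, -1.7 for Col5a3, -1.25 for Col6a2 and Col6a3, -1.86 for Col16a1 and -0.54 for Sparc, and none of the 6 was called.

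Whether the BrM effect differed between the sorts was tested as a difference of log2 changes, the PDGFRb change minus the CD31 change, over all 28 libraries. For breast BrM, 9 of 42 members differed, 5 with a positive and 4 with a negative difference, against 5.93% of all 18548 genes, 2.35% positive and 3.57% negative. For lung BrM, 13 of 42 differed, 2 positive and 11 negative, against 10.1% of all genes, 3.77% positive and 6.35% negative. The median difference was -0.2 for breast and -2.44 for lung BrM over the members, and -0.27 and -0.04 over all genes.

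Fn1 differed in both, by 4.81 ± 0.45 (adjusted p = 1.5e-07) for breast and 5.57 ± 0.46 (adjusted p = 1.6e-08) for lung BrM. It stood at 1318 ± 499 and 2676 ± 735 CPM in PDGFRb breast and lung libraries, beside 1927 ± 781 and 2319 ± 749 CPM in the CD31 sort, where it was not called. Fbln2 also had positive differences in both (log2 difference 5.04 ± 0.84, adjusted p = 0.00032, and 3.47 ± 0.82, adjusted p = 0.0057): it fell in CD31 libraries and stood at 49.2 ± 6.24 CPM in PDGFRb non-tumor, 135 ± 124 CPM in breast and 165 ± 58.3 CPM in lung libraries, where neither change was called (adjusted p = 0.13 and 0.052). Col14a1 had a positive difference for breast BrM (log2 difference 6.47 ± 1.5, adjusted p = 0.01), as did Fbn1 (log2 difference 5.01 ± 1.3, adjusted p = 0.017) and Efemp2 (log2 difference 2.09 ± 0.51, adjusted p = 0.012, 1.61 and not called without PDGFRb 52599).

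Spp1, Emilin1, Fbln1 and Efemp1 had negative differences in both BrM types, that is a smaller log2 rise or a fall in the PDGFRb sort. For Spp1 they were -6.46 ± 1.4 (adjusted p = 0.005) and -5.15 ± 1.4 (adjusted p = 0.015), where limma-voom gave adjusted p of 0.47 and 0.51. The CD31 controls held 0 to 33 counts of Spp1, so its log2 rise in that sort starts near the floor. In CPM, Spp1 went from 193 to 559 in PDGFRb controls to 8910 to 15130 in PDGFRb lung libraries, and to 223 to 3246 in CD31 lung libraries. For Emilin1 they were -3.48 ± 0.97 (adjusted p = 0.029) and -6.03 ± 1 (adjusted p = 0.00023), the first not called without any of 4 libraries (CD31 53680 or 54132, PDGFRb 52865 or 53072, between -3.39 and -3.19). For Fbln1 they were -2.98 ± 0.76 (adjusted p = 0.017) and -4.56 ± 0.79 (adjusted p = 0.00028). Efemp1 had no counts in CD31 controls, so its fitted differences (-9.54 and -9.81, adjusted p = 0.016 and 0.0087) depend on the prior count and are no bound.

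In lung BrM the negative differences also covered Col6a1 (log2 difference -7.19 ± 1.6, adjusted p = 0.003), Col6a2 (log2 difference -5.79 ± 1.6, adjusted p = 0.019), Dcn (log2 difference -7.18 ± 1.6, adjusted p = 0.004), Sparc (log2 difference -2.33 ± 0.57, adjusted p = 0.0081), Bgn (log2 difference -2.77 ± 0.87, adjusted p = 0.039), Thbs1 (log2 difference -2.82 ± 0.9, adjusted p = 0.044) and Mfap4 (log2 difference -7.19 ± 2.1, adjusted p = 0.025). Mfap4 was counted in 1 CD31 lung library, that of mouse 51697, and without it the difference was -1.39 with an adjusted p of 0.93. The call was also lost without PDGFRb lung label 55169-70 (-6.81, adjusted p = 0.052). Col6a2 was not called without CD31 lung library 51435 (-4.18, adjusted p = 0.069). Without CD31 control 56740, the only CD31 control with Col6a2 counts, its fitted value was -10.16, which depends on the prior count. Bgn and Thbs1 lost their calls under 13 and 14 of 28 left-out libraries. Without PDGFRb lung library 51435 the lung BrM differences lay further from 0 for Emilin1 (-7.57), Dcn (-9.14), Bgn (-5.14), Sparc (-3.47), Thbs1 (-3.68), Col6a2 (-6.45) and Mfap4 (-8.04). The fitted difference of Efemp1, which depends on the prior count, moved to -12.42. Single CD31 libraries moved Col6a1 (-5.34 without lung library 51435, -8.77 without control 54135), Dcn (-6.55 without lung library 51697) and Spp1 (-4.39 without lung library 51435, -5.84 without control 54132). In breast BrM, Spp1 was -5.49 without CD31 library 53072 and -7.16 without CD31 control 54132, Fbln2 was 4.16 without PDGFRb 52599, Col14a1 was 7.49 without CD31 52599, and Emilin1 was -4.36 without PDGFRb 51950. With 51435 as the only PDGFRb lung library, 1 sample with the spread of the other groups, Fn1 was called. There Col6a1 (-6.92), Fbln2 (3.63), Spp1 (-5.08) and Fbln1 (-3.9) stood close to the values above and Bgn (-1.14) and Sparc (-1.09) nearer to 0, none of them called.

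With the mouse as a block, which pairs the 2 sorts of an animal, some calls were lost. In breast BrM these were Col14a1 (7.38, adjusted p = 0.098), Fbn1 (4.87, 0.091) and Emilin1 (-3.88, 0.062). In lung BrM they were Col6a1 (-5.34, 0.16), Col6a2 (-4.99, 0.16), Mfap4 (-1.64, 0.95) and Dcn (-6.5, 0.076). In non-tumor brain Fbln5 (-2.04, 0.11) and Tnc (3.99, 0.054) were lost. Calls were also lost in limma-voom, besides those of Spp1. In lung BrM these were Dcn (-5.82, adjusted p = 0.24), Sparc (-2.63, 0.085), Bgn (-3.92, 0.055) and Thbs1 (-2.93, 0.17). Efemp2 in breast BrM (2.3, adjusted p = 0.054) and Tnc in non-tumor brain (3.43, adjusted p = 0.19) were lost in limma-voom as well.

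**Figure D5:**
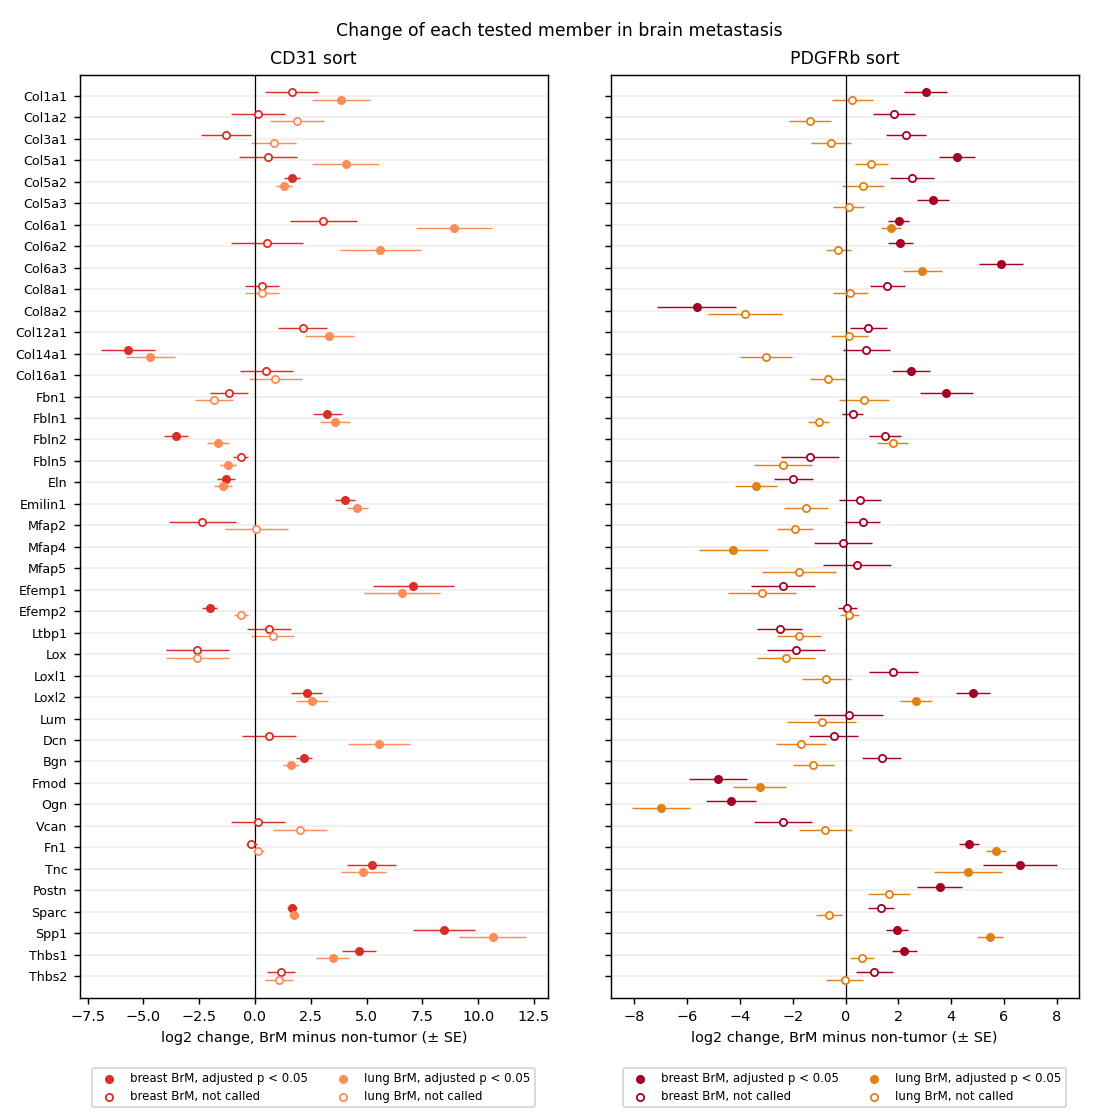
Log2 change with its standard error (bars) of each member in BrM against non-tumor brain, in the CD31 sort and the PDGFRb sort, for breast and lung BrM, with filled points where the adjusted p is under 0.05 in edgeR. Fn1 lies near 0 in the CD31 sort and at 4.66 and 5.70 in the PDGFRb sort, and Sparc, Spp1 and Emilin1 are filled on the CD31 side in both BrM types.

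Genes that act on this matrix were followed in 3 lists: 25 genes of collagen processing, 20 matrix receptors and 21 genes of matrix degradation. In non-tumor brain the PDGFRb sort was higher for 7 of 25 processing genes, 11 of 20 receptors and 12 of 21 degradation genes, and lower for 3, 3 and 1, beside 17.4% higher and 10.5% lower of all genes. These lists were drawn up with earlier results of these data known. Pcolce, an enhancer of procollagen cleavage, stood at 278 ± 97.4 CPM in PDGFRb and 0.724 ± 0.234 CPM in CD31 libraries (log2 difference 8.57 ± 0.62, adjusted p = 6.5e-11). Mrc2, a receptor for collagen uptake, stood at 126 ± 26.7 and 0.0783 ± 0.029 CPM (log2 difference 10.52 ± 1, adjusted p = 3.8e-08).

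In the CD31 sort, 13 of 20 processing genes tested rose and 1 fell in breast BrM, and the same counts were found in lung BrM, beside 18.6% and 20.4% of all genes higher and 11.4% and 14.5% lower. Fkbp10, a collagen chaperone, rose in breast BrM from 16.9 ± 5.68 to 207 ± 73.5 CPM (log2 change 3.64 ± 0.26, adjusted p = 6.2e-08). Of 17 receptors tested 10 rose and 1 fell in breast and 9 rose and 2 fell in lung BrM, led by Cd44, a receptor for hyaluronan and osteopontin, which rose by 6.91 ± 1.1 and 6.55 ± 1.1 on the log2 scale (adjusted p = 0.00013 and 0.00017). Of 16 degradation genes tested 7 rose and none fell in breast, and 6 rose and 1 fell in lung BrM. Mmp14, a membrane-bound collagenase, rose from 1.19 ± 0.823 to 177 ± 72.7 CPM in breast and 218 ± 95.3 CPM in lung libraries (log2 change 7.23 ± 0.5 and 7.57 ± 0.5, adjusted p = 3.3e-08 and 2.3e-08), and the aggrecanase Adamts4 rose by 6.39 ± 0.46 and 6.32 ± 0.46 on the log2 scale (adjusted p = 5.6e-08 and 5.7e-08).

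In PDGFRb breast libraries 6 of 24 processing genes, 5 of 20 receptors and 9 of 21 degradation genes rose and none fell, beside 6.3% higher and 2.69% lower of all genes. Bmp1, the main procollagen C-proteinase, rose from 26.3 ± 5.32 to 376 ± 280 CPM (log2 change 3.86 ± 0.47, adjusted p = 0.00039) and Mmp9, a gelatinase, from 2.1 ± 1.7 to 161 ± 138 CPM (log2 change 6.28 ± 1, adjusted p = 0.0027). With the date as a covariate in edgeR, neither was called (Bmp1 3.63, adjusted p = 0.074, and Mmp9 6.9, adjusted p = 0.15). In the libraries labelled PDGFRb lung, 5 processing genes rose and 4 fell, 6 receptors rose and 5 fell, and 7 degradation genes rose and 3 fell, beside 9.91% higher and 7.58% lower of all genes. The largest rises at high level were Sdc1, a syndecan that is abundant in epithelia, from 22.5 ± 10.5 to 1500 ± 434 CPM (log2 change 6.11 ± 0.45, adjusted p = 2.4e-06), and Plaur, the urokinase receptor, from 4.12 ± 1.15 to 336 ± 54.1 CPM (log2 change 6.4 ± 0.42, adjusted p = 9.7e-07). Both rises stand beside the epithelial sums of 6210 to 10100 CPM in the same 4 libraries, and their relation was not tested.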

How the data were processed

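RNA of CD31 and PDGFRb sorts was read in 28 libraries made with a SMART-Seq kit for low input and Nextera XT, per the labels' protocols. These keep no strand and carry no molecular barcodes, so antisense reads cannot be told apart and counting intervals cover counting error only. Build mm10 and the tools STAR (2.7.9a), RSEM (1.3.3), limma (3.50.3) and edgeR (3.36.0) are listed in the submitters' processing notes, without order or role. The deposited expected counts are the authors' estimated reads per gene. The deposited log2 values are the authors' log2 CPM, used in an alternative, and FPKM, deposited by the authors, served for levels between genes. Of 53647 gene IDs 52093 had a symbol, and the rest held 0.182% to 1.57% of counts.

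Groups came from the titles. The cell type labels of mouse 54135 are the reverse of its titles for both sorts, and the titles were used. Expected counts were rounded, filtered with filterByExpr and scaled by TMM, then tested with edgeR 4.0.16's quasi-likelihood test (R 4.3.3), each sort by itself, and all libraries together for comparisons between sorts. Benjamini-Hochberg adjustment ran over all genes tested, called at an adjusted p under 0.05. The test was tried on simulated data. Errors of log2 changes are standard errors. P-values measure the spread between the animals or pools of each group. No 2 replicates were alike within counting noise (lowest chi-square 17.6 for each degree of freedom).

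Named members are, per comparison and role, the 2 called members with the largest change and a mean of at least 10 CPM in 1 group, and up to 2 per pathway list by the same rule, and others were named after their values were seen. Members and lists were chosen with earlier results of these data known. Counts of 0 were set against 3 counts over the group. Same-numbered libraries of the 2 sorts come from the same animal. In 13 such pairs the correlation of deviations ranged from -0.12 to 0.33 (median 0.01, 3 above 0.1). Alternatives were RLE scaling, DESeq2 1.42.0, limma-voom or limma-trend (limma 3.58.1), other filters, date or mouse terms and left-out libraries, including those above 1000 CPM of epithelial markers, chosen after seeing the data.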

Additional observations from a re-analysis of the deposited data

Results flagged for a closer look

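Of 98 sets of members and groups of 4 to 5 libraries, 13 had 1 library far from the rest of its group, where chance gives about 1 in 20 for normally distributed values. For 4 of the 13 (Col5a3, Col6a2, Mfap4 and Postn in the CD31 sort) all other libraries were at 0, so that a count of any size stands apart. In the PDGFRb lung group mouse 51435 stood apart at 1180 CPM of Bgn (others 51.1 to 84.5), 239 CPM of Col5a1 (38.6 to 45.6), 201 CPM of Col6a3 (14 to 18.3) and 3240 CPM of Sparc (488 to 623). Among PDGFRb controls mouse 54135 was low for Col6a1 (18.7 CPM, others 56.3 to 87.4) and Col6a2 (32.7 CPM, others 72.7 to 87.3). The CD31 control of the same mouse was high for Col1a1 (0.851 CPM, others up to 0.108), Col6a1 (0.227 CPM, others up to 0.0538) and Postn (0.114 CPM, others 0). The cell type labels of this mouse are the reverse of its titles. Its CD31 library held 1360 CPM of Pecam1 and 0.227 CPM of Pdgfrb, and its PDGFRb library 4.01 and 856 CPM, as in the titles. CD31 control 56740 was high for Col5a2 (20.7 CPM, others 8.4 to 10.4), Col6a2 (0.664 CPM, others 0) and Col5a3 (0.0511 CPM, 1 count, others 0), and CD31 lung library 51697 alone had Mfap4 (2.04 CPM, others 0). By mouse number, 5 of the 13 belong to 54135, 4 to 51435, 3 to 56740 and 1 to 51697.

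The BrM effect differed between sorts, by the test of the difference itself (edgeR, PDGFRb change minus CD31 change, log2), for 9 members in breast BrM. These were Col14a1 (6.47), Fbn1 (5.01), Fbln1 (-2.98), Fbln2 (5.04), Emilin1 (-3.48), Efemp1 (-9.54), Efemp2 (2.09), Fn1 (4.81) and Spp1 (-6.46). It differed for 13 members in lung BrM: Col6a1 (-7.19), Col6a2 (-5.79), Fbln1 (-4.56), Fbln2 (3.47), Emilin1 (-6.03), Mfap4 (-7.19), Efemp1 (-9.81), Dcn (-7.18), Bgn (-2.77), Fn1 (5.57), Sparc (-2.33), Spp1 (-5.15) and Thbs1 (-2.82).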

How the results depend on the processing

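Over all alternatives 2965 values of genes named by the rule were recomputed and 2965 kept their direction. These genes were called in the main fit and the alternatives reuse its libraries, so agreement in direction was likely beforehand. Members named outside the rule were not counted. Among them, Col5a2 in PDGFRb lung BrM rose with mouse 51435 as the only lung library and fell without that library (-1.65). With the date in the column names as a covariate, called members numbered 6 in CD31 lung, 4 in PDGFRb breast and 3 in PDGFRb lung BrM, against 20, 17 and 10. Of the 3 in PDGFRb lung BrM, 1 was not among the 10. No date holds both BrM types. Within single dates (2 or 3 BrM and 1 or 2 control libraries) every called member of the 4 BrM comparisons with controls kept its direction. The same libraries gave the calls, so this agreement does not separate date from BrM. DESeq2 called 4 members between CD31 lung and breast BrM (main 2), 18 in PDGFRb lung BrM (main 10) and 20 between PDGFRb lung and breast BrM (main 7). limma-trend called 1 and 16 in the first and last of these. Without the 2 lung labels that name 2 mice, 1 member was called between PDGFRb lung and breast BrM and 7 differed between sorts in lung BrM (main 13), and with mouse 51435 as the only PDGFRb lung library, its spread taken from the other groups, 1 and 1.

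Leaving out single libraries, the called members ranged from 13 to 15 in CD31 breast, 16 to 22 in CD31 lung, 0 to 4 between CD31 lung and breast, 12 to 23 in PDGFRb breast, 7 to 20 in PDGFRb lung, 1 to 24 between PDGFRb lung and breast, 34 to 37 between sorts in non-tumor brain, 8 to 10 for the breast and 10 to 18 for the lung difference between sorts. Between CD31 lung and breast BrM the count was 0 without 53072 or 53142, 1 without 51435, 52599 or 52865 and 4 without 54957. The share of all genes called was taken for the main fits only. Counts under alternatives and left-out libraries therefore have no such share beside them. With the mouse as a replicate block 34 members were called between sorts in non-tumor brain, 6 for the breast and 9 for the lung difference, and no member call changed beyond those given above. Depth limits members near the floor of 3 counts (0.119 to 0.498 CPM), mainly collagens and proteoglycans in the CD31 sort.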
